A study of Mus musculus with 10 samples.

Results

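Long intergenic noncoding RNAs (lincRNAs) are transcripts of genes that lie between coding genes and carry no recognised open reading frame. The lincRNAs described here were the genes with the GENCODE M21 biotype lincRNA whose mean level over all 10 libraries was at least 0.5 CPM (a count divided by the library's total and scaled to 1e6). Neat1, Malat1, Gas5, Dancr, Zfas1, the Snhg genes and genes on chromosomes X and Y were left out. The rule kept 239 genes of the 54446 in the count table, on 19 chromosomes. They were chosen by their mean level over both genotypes, so the levels are a description. The rule did not use the difference between genotypes, but 24 lincRNAs had a mean of at least 0.5 CPM in WT only and 6 in WWv only, so that these entered through the genotype in which they were higher. Of the 5535 lincRNAs in the table, 4644 outside the exclusions lay below the threshold, and 10 at or above it were excluded by name or chromosome. Just inside it lay Gm37565 at 0.502, C430042M11Rik at 0.506 and Gm26606 at 0.507 CPM, and just outside it Gm16386 at 0.499, Gm36107 at 0.494 and Gm40841 at 0.491 CPM. All 239 passed the filter on low counts.

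Messenger RNA was sequenced from cultured primary aortic smooth muscle cells of mice, with the question of how transcription differs when c-Kit signalling is lost. The WWv group held 5 libraries from mice with 1 W and 1 Wv allele of Kit, and the wild type (WT) group held 5 libraries. Cells of both groups were freed with collagenase and grown to passage 2, with no further treatment given in the labels. Kit encodes c-Kit, a receptor tyrosine kinase bound by stem cell factor. Through a splice mutation, W yields a receptor without its transmembrane segment, and Wv a missense change within the kinase, so the transcript itself need not be lower with either. Both alleles are germline alleles, carried by every cell of the mouse. The labels name 5 mice per genotype but do not state that each library is a separate mouse, so p-values measure the spread between these libraries, which may be partly technical. The sex, age and genetic background of the mice are not given in the sources used here.

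Many lincRNAs are spliced and polyadenylated like messenger RNAs and are more restricted to a cell type and less abundant than these. Some act on genes near their own locus, some act elsewhere as scaffolds or as binding partners of proteins and microRNAs (miRNAs), and some are the primary transcripts from which miRNA hairpins are cut. In smooth muscle, Carmn is known for keeping cells contractile, and H19 for being high in fetal and injured vessels and low in the resting adult aorta.

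All values per library are CPM scaled with TMM factors and are given for replicates 1 to 5 of each group in order. Differences are log2 fold changes of WWv over WT with their SE from edgeR's quasi-likelihood test, with p adjusted by the Benjamini-Hochberg method over all 15181 genes tested, and a gene was called at an adjusted p under 0.05. Totals lay between 42040255 and 53863661 counts per library. The TMM factors were 0.957 to 0.984 in WWv and 1.01 to 1.06 in WT, without overlap. Kit itself was 2.09, 0.929, 1.71, 3.01 and 2.25 CPM in WWv and 3.19, 4.92, 4.07, 4.40 and 4.02 CPM in WT (log2 fold change −1.04 ± 0.25, edgeR adjusted p = 0.0122), and the groups did not overlap. The 6 smooth muscle markers were all detected, with summed levels of 16748 to 20129 CPM in WWv and 9941 to 13003 CPM in WT, and 5 of them rose. Of 10 cell cycle genes 7 rose (sums of 598 to 699 CPM in WWv and 430 to 700 CPM in WT), and of 6 markers of adventitial fibroblasts 4 fell (223 to 336 CPM in WWv and 381 to 533 CPM in WT). By limma-voom 2 of these fibroblast markers fell. No marker of endothelium was called among 6 (89.5 to 208 CPM in WWv and 55.3 to 323 CPM in WT). The same held for the 3 of 6 leukocyte and macrophage markers that could be tested, with sums of 8.46 to 12.5 CPM in WWv and 8.88 to 20.7 CPM in WT over all 6. DESeq2 and limma-voom called 0 of both sets too, and at an unadjusted p under 0.05 edgeR had 0 endothelial markers and 1 leukocyte marker, lower in WWv. The 5 mast cell markers summed to 0.0382 to 0.0962 CPM in WWv and 0.0780 to 0.571 CPM in WT, with Fcer1a at 0 in every library. The part of these shifts in the lincRNA results was not tested. In bulk RNA, fewer cells of a type and less RNA per cell cannot be told apart. On the first principal component of all genes WT 2 lay at −20.2, within the WWv range of −33.4 to −11.5, while the other WT libraries lay between 29.1 and 51.1. WT 2 also had the highest sums of the endothelial and cell cycle markers among the 10 libraries.

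Among the lincRNAs with annotated miRNAs inside the gene, 8 of 12 fell, and the miRNAs they carry are shown first because they are the best known products of these transcripts. Mature sequences are from RefSeq (GRCm38.p6), 5′ to 3′, with the seed (bases 2 to 8), the stretch that pairs with target messenger RNAs, in capitals. H19 carries miR-675:
mmu-miR-675-5p: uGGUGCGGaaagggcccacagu
Mir155hg carries miR-155, known from activated immune cells and from inflamed vessels:
mmu-miR-155-5p: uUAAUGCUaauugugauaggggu
Mir17hg carries the miR-17-92 cluster, known for driving proliferation, in which miR-17 shares its seed with miR-20a, and miR-19a with miR-19b:
mmu-miR-17-5p: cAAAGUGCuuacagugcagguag
mmu-miR-20a-5p: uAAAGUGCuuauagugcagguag
mmu-miR-18a-5p: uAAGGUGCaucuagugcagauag
mmu-miR-19a-3p: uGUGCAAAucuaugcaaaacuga
mmu-miR-19b-3p: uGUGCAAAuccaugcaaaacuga
mmu-miR-92a-3p: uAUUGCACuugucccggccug
The lincRNA 6720427I07Rik carries 3 members of the let-7 family, known for restraining growth, which share 1 seed:
mmu-let-7d-5p: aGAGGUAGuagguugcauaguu
mmu-let-7f-5p: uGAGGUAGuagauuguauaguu
mmu-let-7a-5p: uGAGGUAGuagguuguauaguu
AL805899.1, E130102H24Rik, 2900076A07Rik and Gm37233 each carry 1:
mmu-miR-31-5p: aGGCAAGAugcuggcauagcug
mmu-miR-101a-3p: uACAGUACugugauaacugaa
mmu-miR-1839-5p: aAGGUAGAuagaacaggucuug
mmu-miR-5103: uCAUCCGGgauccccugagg
Apart from the let-7 seed GAGGUAG, the miR-17 seed AAAGUGC, the miR-19 seed GUGCAAA and the seed UAUACAA of the opposite strands of the let-7f-1 and let-7a-1 hairpins, no seed occurred more than once among the miRNAs of the 8 lower hosts. The mature miRNAs were not measured here, and the counts are of the host genes.

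The expressed lincRNAs were more often lower than higher in WWv. Of 239, 62 fell (25.9%, against 15.4% of all 15181 tested genes) and 13 rose (5.44%, against 12.8% of all tested genes). In either direction 75 were called (31.4%), close to the 28.2% of all tested genes. The lower ones changed by −2.85 to −0.32 on the log2 scale and the higher ones by 0.31 to 1.70. At least a 2-fold difference was reached by 28 of the lower and 4 of the higher lincRNAs. The median log2 fold change of the 239 was −0.28 (quartiles −0.60 and 0.08), beside −0.01 over all tested genes and 0.01 over 13195 protein coding genes, of which 14.3% rose and 14.9% fell. Of the 24 lincRNAs that reached 0.5 CPM in WT only 12 fell, of the 6 that did so in WWv only 2 rose, and of the other 209 11 rose and 50 fell. In all, 162 of the 239 (67.8%) had a negative log2 fold change, against 51.2% of all tested genes.

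All WWv libraries were below all WT libraries for 32 lincRNAs (13.4%, against 7.84% of all tested genes) and above all of them for 8 (3.35%, against 8.03%). All 40 were also called. WT 2 was the lowest WT library in 24 of the 32 lower lincRNAs whose groups did not overlap, and in 22 of the 30 other lower ones it lay within the WWv range. Of the 75 calls, 51 were kept whichever single library was left out. Without WT 2 and WWv 1 together, 21 lincRNAs were higher and 86 lower. Without WWv 4, 8 were higher. With scaling to the library totals alone, 11 lincRNAs were higher and 78 lower, and of all tested genes 983 were higher and 3599 lower, beside 1940 higher and 2334 lower with TMM scaling.

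**Figure D1:**
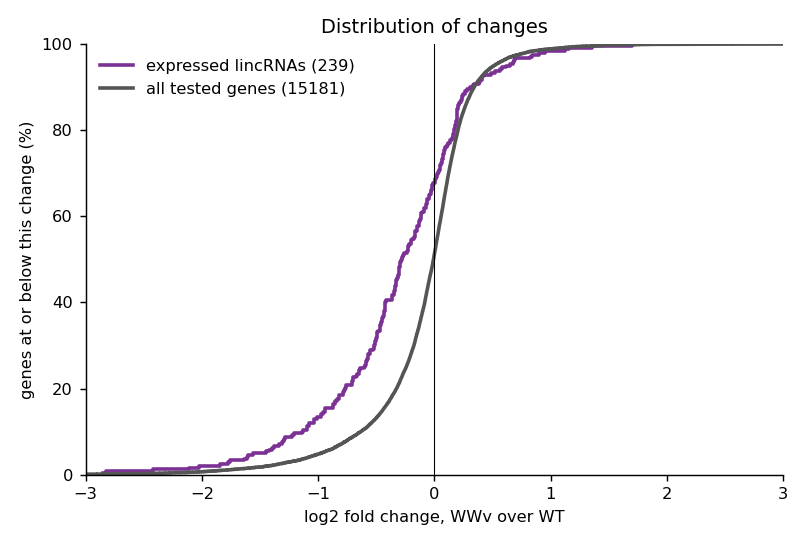
Cumulative share of genes (vertical axis, percent) at or below each log2 fold change of WWv over WT (horizontal axis), for the 239 expressed lincRNAs and for all 15181 tested genes. The lincRNA curve lies to the left of the curve of all genes through the middle of the range, with medians of −0.28 and −0.01, and a few genes beyond the axis ends are not drawn.

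**Figure D2:**
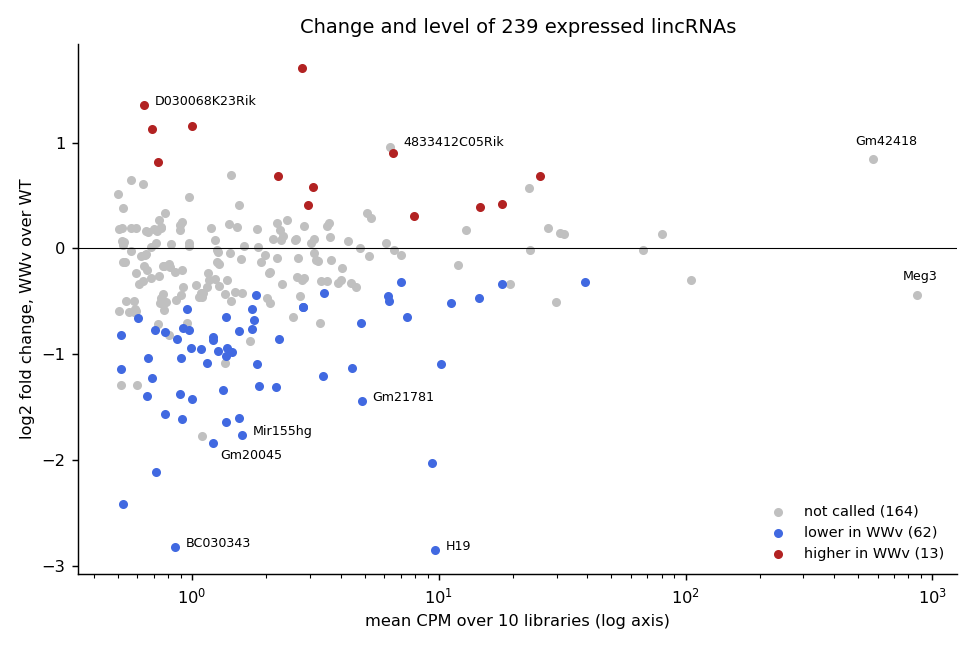
Each point is 1 of the 239 lincRNAs, placed by its mean CPM over 10 libraries (horizontal, log axis) and its log2 fold change of WWv over WT (vertical). The 62 lower lincRNAs (blue) reach down to H19 at −2.85, and the 13 higher ones (red) and 164 that were not called (grey) lie among and above them.

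The lincRNAs were next divided by level, and differences between the classes were not tested. In the lowest class, 0.5 to 1 CPM, 3 of 91 lincRNAs rose and 20 fell (median log2 fold change −0.23). Between 1 and 5 CPM 5 of 111 rose and 31 fell (median −0.30), and of the 37 lincRNAs at 5 CPM or more 5 rose and 11 fell (median −0.02). More fell than rose in each class, and the median of the most abundant class was nearest to 0. In that class 13.5% rose and 29.7% fell, beside 12.8% and 15.4% of all tested genes. Every WWv library lay above every WT library for 8.11% of it and below for 8.11%, beside 8.03% and 7.84% of all tested genes. In the lowest class 3.3% rose and 22.0% fell, and between 1 and 5 CPM 4.5% rose and 27.9% fell.

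Division by exon number and by overlap with other genes was likewise not tested between classes. Of 39 with a single merged exon 1 rose and 12 fell, of 56 with 2 exons 3 rose and 14 fell, and of 144 with 3 or more 9 rose and 36 fell, with medians of −0.30, −0.26 and −0.25. Whether counting used strand was not given in the sources used here, so reads in stretches shared with another gene cannot be assigned with certainty. Among 170 lincRNAs whose exons share no base with another gene, 9 rose and 36 fell (median −0.17). Among 45 that overlap another gene on the opposite strand only, 3 rose and 14 fell (median −0.37). Among 24 that overlap a gene on their own strand 1 rose and 12 fell (median −0.50), and the miRNA hosts belong to these.

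Other noncoding classes, which took no part in choosing the lincRNAs, are set beside them. Of 388 tested antisense genes 14 rose and 62 fell (median −0.19), and of 234 processed transcripts 7 rose and 65 fell (median −0.36). The share of antisense genes that fell was close to the 15.4% of all tested genes, and that of processed transcripts was above it. In both classes the share that rose was below the 12.8% of all tested genes. Of 63 bidirectional promoter RNAs 0 rose and 17 fell (27.0%) by the same edgeR test, with a median of −0.31. At an unadjusted p under 0.05 in edgeR 1 was higher, and by DESeq2 or limma-voom 0 were. Of 38 sense intronic genes 2 rose (5.26%) and 14 fell (36.8%), with a median of −0.61. The GENCODE class TEC holds transcripts still to be tested by experiment. Of its 255 tested genes 4 rose (1.57%) and 74 fell (29.0%), with a median of −0.46. The last class is largely made of unspliced transcripts without a settled gene model. Its summed level was 307 to 380 CPM in WWv and 364 to 484 CPM in WT, and that of the sense intronic genes 68.8 to 84.3 CPM in WWv and 79.5 to 107 CPM in WT. The part of these classes of RNA in the lincRNA result was not tested.

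The miRNA hosts are described next. Of the 12 lincRNAs with an annotated miRNA inside the gene, 8 fell and none rose (66.7% lower, against 25.9% of all the lincRNAs), and all 12 had a negative log2 fold change, with a median of −0.82. From the role list of 24 names drawn up for miRNA hosts, 10 were members, of which 5 fell and 5 were not called. In this set 8 log2 fold changes were negative, and the median was −0.43. That list also holds RNAs without an annotated miRNA inside the gene, among them Lockd and Gm26532, which fell, and Carmn at 0.57. Among the 227 lincRNAs that are not among the 12 hosts 54 fell and 13 rose (median −0.23). For 2 of the 12, H19 and Mir155hg, the groups did not overlap. The number of lower hosts was 5 without WT 1, WT 3, WT 4 or WWv 3, and 9 at most when any other library was left out. By DESeq2 and by limma-voom 8 fell as well, and none rose by any of the 3 tools or at an unadjusted p under 0.05 in edgeR. The exons of all 12 share bases with another annotated gene on their own strand, in most the miRNA hairpin itself. The miRNA genes within the hosts numbered 40.

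H19 (chr7:142575529-142578143, minus strand, mm10) is an imprinted gene expressed from the maternal copy, and it shares enhancers with its paternally expressed neighbour Igf2. Its level was 3.28, 1.46, 3.06, 1.27 and 2.5 CPM in WWv and 14.1, 6.58, 9.89, 31.6 and 21.2 CPM in WT. The groups did not overlap, and the WT libraries themselves spread widely, with WT 2 the lowest and WT 4 the highest. The means were 2.31 ± 0.914 CPM in WWv and 16.7 ± 9.98 CPM in WT (SD, n = 5 each), a level 7.21-fold lower (log2 fold change −2.85 ± 0.44, edgeR adjusted p = 0.00153), the largest fall of the 239 by fold. Igf2, a growth factor gene, was 0.292, 0.255, 0.217, 0.172 and 0.191 CPM in WWv and 0.814, 0.194, 0.565, 0.914 and 1.03 CPM in WT (log2 fold change −1.64 ± 0.39, edgeR adjusted p = 0.0117). The Igf2 groups overlapped through WT 2. The nearest coding gene of H19, Mrpl23, which encodes a mitochondrial ribosomal protein, lies 34.8 kb away and was not called (−0.19, edgeR adjusted p = 0.217).

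Mir155hg (chr16:84703167-84715245, plus strand) is the primary transcript of miR-155. It stood at 1.12, 0.441, 0.650, 0.517 and 0.840 CPM in WWv and at 2.48, 1.42, 2.94, 2.63 and 2.68 CPM in WT. The highest WWv library lay below the lowest WT library, WT 2. The level was 3.39-fold lower in WWv (0.714 ± 0.275 CPM in WWv and 2.43 ± 0.588 CPM in WT, SD, n = 5 each; log2 fold change −1.76 ± 0.27, edgeR adjusted p = 0.00162). These counts were small, with 19 to 151 reads per library. Leukocyte and macrophage markers, given above, were low in all libraries and none was called.

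Mir17hg (chr14:115042879-115046727, plus strand) had 1.53, 0.557, 0.601, 0.560 and 0.458 CPM in WWv and 1.77, 2.82, 2.05, 1.20 and 1.53 CPM in WT. WWv 1 stood far above the other WWv libraries and within the WT range, and the other 4 WWv libraries lay below every WT library. It fell by 1.34 on the log2 scale (SE 0.35, edgeR adjusted p = 0.0169). Of the 10 cell cycle markers 7 were higher in WWv, where 12.8% of all tested genes were. WT 2, the library with the most Mir17hg, also had the highest cell cycle sum, at 700 CPM. A link between Mir17hg and these markers was not tested.

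The let-7 host 6720427I07Rik (chr13:48532905-48546500, minus strand) had 1.62, 0.627, 0.409, 1.16 and 0.878 CPM in WWv and 1.88, 1.44, 1.81, 1.90 and 2.02 CPM in WT. WWv 1 lay within the WT range. The log2 fold change was −0.94 ± 0.30 (edgeR adjusted p = 0.0377), and the call was lost in 8 of the 10 fits that leave out 1 library, all but those without WT 2 or WWv 1 (edgeR adjusted p of 0.0526 to 0.0873). The miR-31 host AL805899.1 (chr4:88909855-88938521, minus strand) had 0.900, 0.557, 0.650, 0.969 and 0.458 CPM in WWv and 1.00, 1.72, 1.29, 1.18 and 0.846 CPM in WT, so that the groups overlapped. Its log2 fold change was −0.77 ± 0.26 (edgeR adjusted p = 0.0432), and it was no longer called without any one of WT 1 to 4, WWv 2, WWv 3 or WWv 5 (adjusted p of 0.0556 to 0.0992), without the count filter (0.0674) or with the replicate number as a block (0.0625). The miR-101a host E130102H24Rik (chr4:101346531-101356735, minus strand) had 0.405, 0.0929, 0.385, 0.301 and 0.592 CPM in WWv and 0.960, 0.388, 1.03, 1.43 and 0.917 CPM in WT (log2 fold change −1.40 ± 0.41, edgeR adjusted p = 0.0281). It reached a mean of 0.5 CPM in WT only. WT 2 was the one WT library within the WWv range, and the call was lost without WT 1, WT 3, WT 4, WWv 3 or WWv 4 (adjusted p of 0.0546 to 0.0708). These 3 hosts therefore sat close to the threshold.

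Of the other 2 lower hosts, 2900076A07Rik (miR-1839) had 1.62, 1.49, 1.44, 1.16 and 2.20 CPM in WWv and 3.17, 1.55, 2.87, 3.33 and 3.46 CPM in WT (log2 fold change −0.86 ± 0.23, edgeR adjusted p = 0.0195). Gm37233 (miR-5103) had 9.62, 8.96, 9.91, 8.18 and 9.47 CPM in WWv and 13.3, 9.90, 14.6, 14.7 and 13.4 CPM in WT (log2 fold change −0.51 ± 0.11, edgeR adjusted p = 0.00611). In both, WT 2 was the only WT library within the WWv range. Among hosts that were not called, A230057D06Rik, with 7 miRNAs of the miR-344 family, had a log2 fold change of −0.04 ± 0.24 (adjusted p = 0.913), and 4833445I07Rik, with miR-191 and miR-425, one of −0.26 ± 0.32 (adjusted p = 0.569). The hairpin of Mir24-2 shares 2 exon bases with Gm26532 (chr8:84208920-84209609, plus strand), which was not counted as a host. Gm26532 had 3.76, 2.46, 2.07, 2.28 and 3.25 CPM in WWv and 6.01, 5.86, 6.75, 5.52 and 6.14 CPM in WT, without overlap (log2 fold change −1.13 ± 0.16, edgeR adjusted p = 0.00108). Its nearest coding gene Zswim4 lies 1.07 kb away and was lower as well (−0.30, adjusted p = 0.0206).

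**Figure D3:**
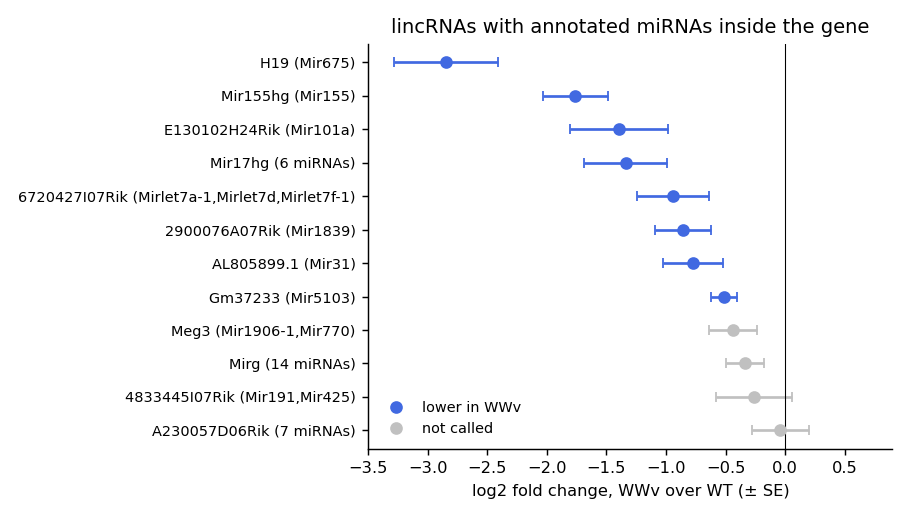
Log2 fold change of WWv over WT (horizontal axis, point, with bars for ± SE) for the 12 lincRNAs that contain annotated miRNAs, named with their miRNA genes. All 12 points lie left of 0, from −2.85 for H19 to −0.04 for A230057D06Rik, and the 8 in blue were called lower.

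Of the 12 names on the list of imprinted RNAs, 3 were members, H19, Meg3 and Mirg. H19 alone was called (33.3% lower, beside 15.4% of all tested genes). Names with a biotype other than lincRNA could not be members, whatever their level. Meg3 (chr12:109541001-109571726, plus strand), a maternally expressed RNA of the Dlk1-Dio3 locus, was the most abundant lincRNA by mean CPM. It stood at 986, 592, 620, 666 and 826 CPM in WWv and at 963, 591, 988, 1177 and 1281 CPM in WT (log2 fold change −0.44 ± 0.20, edgeR adjusted p = 0.128). WT 2 was the lowest of the 10 libraries, and without it the log2 fold change was −0.58 (adjusted p = 0.00941), so this library decides the call. Mirg, from the same locus and host of 14 miRNAs, had 22.4, 13.1, 16.4, 14.3 and 19.6 CPM in WWv and 21.8, 16.1, 22.0, 22.0 and 26.3 CPM in WT (log2 fold change −0.33 ± 0.16, edgeR adjusted p = 0.14). It was called without WT 2 (−0.42, adjusted p = 0.0318) or without WWv 1 (−0.45, adjusted p = 0.0479), without both (−0.54, adjusted p = 0.00397), and with the replicate number as a block (−0.34, adjusted p = 0.0387). Within WWv, both were highest in WWv 1 and lowest in WWv 2. Dlk1, the paternally expressed coding gene of the locus, was 3.48 ± 2.72 CPM in WWv and 3.11 ± 2.38 CPM in WT (SD, n = 5 each; log2 fold change 0.16, edgeR adjusted p = 0.851).

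Of 20 names of RNAs known from growth control or the p53 response, some of them synonyms, 7 were members by symbol. Of these, Lockd fell (14.3%, beside 15.4% of all tested genes), and the median log2 fold change was −0.06. None of these 7 was higher by edgeR, also at an unadjusted p under 0.05, by DESeq2 or by limma-voom. The same held for the imprinted RNAs and for the developmental ones. Of all tested genes 12.8% were higher, and sets of 3 to 7 are too small to tell 0 from that share. Names were matched by symbol alone, so Gm14005, listed as Morrbid, was not among the 7. It was higher in WWv (log2 fold change 0.42, edgeR adjusted p = 0.00114). Lockd (chr6:134929092-134956798, plus strand) lies 3.58 kb downstream of Cdkn1b, which encodes the cell cycle inhibitor p27. It had 2.41, 3.37, 2.69, 2.54 and 3.51 CPM in WWv and 3.80, 4.36, 3.55, 4.15 and 3.60 CPM in WT. The groups did not overlap, with WWv 5 just under the lowest WT library (log2 fold change −0.42 ± 0.13, edgeR adjusted p = 0.0349). The call was lost without any one of WT 1, WT 3, WT 4, WWv 1, WWv 3 or WWv 4 (adjusted p of 0.0501 to 0.0847), without the count filter (0.0682), with the replicate block (0.0543) and without WT 2 and WWv 1 together (0.0686). Cdkn1b itself was lower (−0.38 ± 0.11, adjusted p = 0.0248). Trp53cor1, known as lincRNA-p21 and induced by p53, lies 11.8 kb from Cdkn1a, which encodes the inhibitor p21. It had 2.99, 3.60, 2.67, 3.19 and 3.27 CPM in WWv and 3.53, 3.56, 3.61, 4.97 and 3.83 CPM in WT (log2 fold change −0.31 ± 0.13, edgeR adjusted p = 0.0889). With scaling to library totals alone it was called lower (−0.39, adjusted p = 0.0363). The groups overlapped slightly, and Cdkn1a was higher (0.30 ± 0.07, adjusted p = 0.0101).

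The other 5 of the 7 members linked to growth or p53 were not called. Norad (2900097C17Rik), an abundant cytoplasmic RNA that binds Pumilio proteins, averaged 66.8 ± 0.823 CPM in WWv and 67.7 ± 5.03 CPM in WT (SD, n = 5 each; log2 fold change −0.02 ± 0.05, edgeR adjusted p = 0.812). Cyrano (1700020I14Rik, Oip5os1 in RefSeq), which binds miR-7 and promotes its decay, averaged 84.0 ± 8.46 CPM in WWv and 76.3 ± 12.7 CPM in WT (0.14 ± 0.11, adjusted p = 0.372). Pvt1, a neighbour of Myc, averaged 6.84 ± 0.903 CPM in WWv and 7.15 ± 0.491 CPM in WT (−0.06 ± 0.10, adjusted p = 0.66). These 3 differed by less than the spread between libraries. Lncpint, a p53 target, averaged 2.03 ± 0.436 CPM in WWv and 2.57 ± 0.884 CPM in WT (−0.34 ± 0.25, adjusted p = 0.328; −0.20 without WT 2), and Epb41l4aos averaged 4.80 ± 1.07 CPM in WWv and 4.78 ± 0.660 CPM in WT (adjusted p = 0.989).

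Of 27 lincRNAs linked to development or to Hox clusters, 4 were members, of which Dubr fell (median log2 fold change −0.13). With 4 members the share that fell cannot be told from the 15.4% of all tested genes. Dubr (chr16:50719294-50732773, minus strand), also called Dum and known to promote differentiation of skeletal myoblasts, had 13.6, 12.5, 10.8, 10.8 and 13.0 CPM in WWv and 15.7, 15.7, 17.2, 17.4 and 17.9 CPM in WT. The groups were well separated and each was tight (log2 fold change −0.47 ± 0.08, edgeR adjusted p = 0.00243). Bvht (Braveheart), known from the commitment of heart cells, averaged 0.804 ± 0.120 CPM in WWv and 0.702 ± 0.102 CPM in WT (0.20 ± 0.17, adjusted p = 0.40; 0.12 without WWv 5). Lncenc1, known from naive embryonic stem cells, averaged 0.800 ± 0.161 CPM in WWv and 0.699 ± 0.176 CPM in WT (0.20 ± 0.22, adjusted p = 0.527; 0.082 without WT 3, 0.12 without WT 4 and 0.10 without WWv 3). Wincr1, a target of Wnt signalling in dermal fibroblasts, averaged 0.910 ± 0.330 CPM in WWv and 1.25 ± 1.01 CPM in WT (−0.46 ± 0.49, adjusted p = 0.503), and its WT spread came from WT 2 at 2.93 CPM, without which the log2 fold change was 0.11.

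Carmn, the smooth muscle lincRNA that lies beside the miR-143 and miR-145 genes, had 39.8, 20.2, 23.2, 21.6 and 34.8 CPM in WWv and 16.6, 8.99, 19.9, 24.2 and 24.6 CPM in WT. The groups overlapped, with WT 2 the lowest and WWv 1 the highest library. The means were 27.9 ± 8.81 CPM in WWv and 18.9 ± 6.42 CPM in WT (SD, n = 5 each), and the difference was not called (log2 fold change 0.57 ± 0.27, edgeR adjusted p = 0.143). Without both of those libraries the log2 fold change was 0.23. Among the coding markers, Acta2, smooth muscle actin, had a mean of 11395 CPM in WWv and 6777 CPM in WT, and Myh11, smooth muscle myosin heavy chain, one of 579 CPM in WWv and 283 CPM in WT.

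The other falls described here are those of lincRNAs whose groups did not overlap. Among lincRNAs whose groups overlapped, Gm45397 (−2.42), Gm3830 (−2.11) and Gm6093 (−2.03) were also called lower, with WT 2 the lowest WT library in each. Gm45397 and Gm3830 reached a mean of 0.5 CPM in WT only. The call of Gm45397 was lost in 6 of the 10 fits that leave out 1 library (without WT 1, WT 3, WT 4 or WWv 1 to 3, adjusted p of 0.0546 to 0.0672) and by limma-voom. BC030343 (chr5:143270075-143272513, plus strand, 1 exon) had 0.337, 0.0929, 0.120, 0.172 and 0.286 CPM in WWv and 1.44, 0.927, 1.54, 1.81 and 1.60 CPM in WT. All WWv libraries lay below 0.5 CPM, so it met the threshold through WT alone, and the groups did not overlap (7.09-fold lower, log2 fold change −2.83 ± 0.32, edgeR adjusted p = 0.000427). It starts 0.053 kb from Zfp316, a zinc finger gene transcribed in the other direction, which was not called (−0.10, adjusted p = 0.533). Gm20045 (chr1:171320601-171326177, minus strand) had 0.607, 0.464, 0.409, 0.495 and 0.611 CPM in WWv and 1.59, 1.57, 2.34, 1.49 and 2.35 CPM in WT, a 3.58-fold lower level without overlap (−1.84 ± 0.20, adjusted p = 0.000372). The start of Dedd, a regulator of apoptosis, lies 2.97 kb away on the other strand and was slightly lower (−0.14, adjusted p = 0.0389).

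Gm21781 (chr10:4391587-4396424, plus strand) is better measured than these, with 2.77, 2.04, 2.48, 2.63 and 2.96 CPM in WWv and 7.91, 5.61, 7.35, 6.93 and 7.34 CPM in WT. Its log2 fold change was −1.45 ± 0.13 (edgeR adjusted p = 0.000143), while the divergent coding gene Zbtb2, 3.48 kb away, was higher (0.34, adjusted p = 0.00262). The pair thus moved in opposite directions. Gm47416 averaged 0.656 ± 0.207 CPM in WWv and 2.05 ± 0.452 CPM in WT (−1.64 ± 0.23, adjusted p = 0.00115). For 1200007C13Rik the means were 0.757 ± 0.107 CPM in WWv and 2.31 ± 0.791 CPM in WT (−1.61 ± 0.25, adjusted p = 0.00152), and for 2610037D02Rik they were 0.388 ± 0.182 CPM in WWv and 1.15 ± 0.247 CPM in WT (−1.56 ± 0.31, adjusted p = 0.00465). Of these 3, 2610037D02Rik reached a mean of 0.5 CPM in WT only. None of the 3 overlapped between groups, and their nearest coding genes, Amotl2, Ptpn1 and Arid2, were not called. Gm45250 averaged 0.535 ± 0.134 CPM in WWv and 1.45 ± 0.385 CPM in WT (−1.42 ± 0.24, adjusted p = 0.00217). Gm49335 averaged 1.24 ± 0.207 CPM in WWv and 3.09 ± 0.717 CPM in WT (−1.31 ± 0.19, adjusted p = 0.0013). Near Gm49335 lies Ctdsp2, 17.7 kb away, which was also lower (−0.36, adjusted p = 0.00252).

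Of the 8 lincRNAs with every WWv library above every WT library, D030068K23Rik (chr8:109075222-109273811, plus strand) rose the most. It had 0.495, 1.07, 1.18, 1.12 and 0.802 CPM in WWv and 0.417, 0.410, 0.273, 0.362 and 0.353 CPM in WT (2.56-fold higher, log2 fold change 1.36 ± 0.25, edgeR adjusted p = 0.00373). WWv 1 lay only just above the WT libraries, the mean reached 0.5 CPM in WWv only, and counts were low, at 14 to 52 reads per library. Its nearest coding gene Zfhx3, a transcription factor gene 114 kb away, was higher too (0.35, adjusted p = 0.0114). Gm36495 (chr12:16844881-16850881, minus strand) had 1.03, 0.906, 0.938, 1.10 and 0.821 CPM in WWv and 0.772, 0.172, 0.565, 0.324 and 0.353 CPM in WT (1.12 ± 0.32, adjusted p = 0.0233). It too reached a mean of 0.5 CPM in WWv only. Its call was lost without WT 4, WT 5 or WWv 4 (adjusted p of 0.0541 to 0.0581). E2f6, a repressor of the E2F family 5.14 kb away, was higher (0.47, adjusted p = 0.000621).

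4833412C05Rik (chr7:67784538-67804139, minus strand) had 9.85, 8.73, 8.56, 8.74 and 6.74 CPM in WWv and 3.19, 6.34, 4.64, 3.73 and 4.96 CPM in WT (1.86-fold higher, log2 fold change 0.90 ± 0.17, edgeR adjusted p = 0.00439). WT 2 was the WT library nearest to WWv. Gm14005 (chr2:128178319-128502765, minus strand) averaged 20.6 ± 1.14 CPM in WWv and 15.4 ± 0.979 CPM in WT (SD, n = 5 each; 0.42 ± 0.06, adjusted p = 0.00114). Its exons share bases with another gene on its own strand, so reads there cannot be assigned with certainty. Gm14005 lies 15.8 kb from Bcl2l11, which encodes the pro-apoptotic protein Bim and was not called (−0.13, adjusted p = 0.502).

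The other 4 rose less or less firmly. Gm32764 averaged 0.934 ± 0.177 CPM in WWv and 0.529 ± 0.138 CPM in WT (0.82 ± 0.22, edgeR adjusted p = 0.0195), and its call was lost without WWv 4 (0.71, adjusted p = 0.0528) and with the replicate block (0.83, 0.0561). Gm26722 averaged 3.73 ± 0.414 CPM in WWv and 2.49 ± 0.282 CPM in WT (0.58 ± 0.12, adjusted p = 0.00604), and 796 of its 1048 exon bases overlap Rbbp4 on the opposite strand. Gm29233 averaged 16.8 ± 1.55 CPM in WWv and 12.8 ± 1.30 CPM in WT (0.39 ± 0.09, adjusted p = 0.00841), and 208 of its 281 exon bases overlap Thbs1, the thrombospondin gene, which was itself higher (0.31 ± 0.10, adjusted p = 0.043). Reads of these overlapping pairs cannot be told apart without strand. Gm12153 averaged 3.36 ± 0.370 CPM in WWv and 2.54 ± 0.337 CPM in WT (0.41 ± 0.13, adjusted p = 0.0339), and its call was lost in 7 of the 10 fits that leave out 1 library, those without WT 1, WT 3, WT 4 or WWv 2 to 5 (adjusted p of 0.0611 to 0.0933). It was lost as well with library totals alone (0.0794), without the count filter (0.0675) and with the replicate block (0.0921). Its nearest coding gene Adra1b, an adrenergic receptor gene 57.9 kb away, was higher (0.63, adjusted p = 0.00873).

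**Figure D4:**
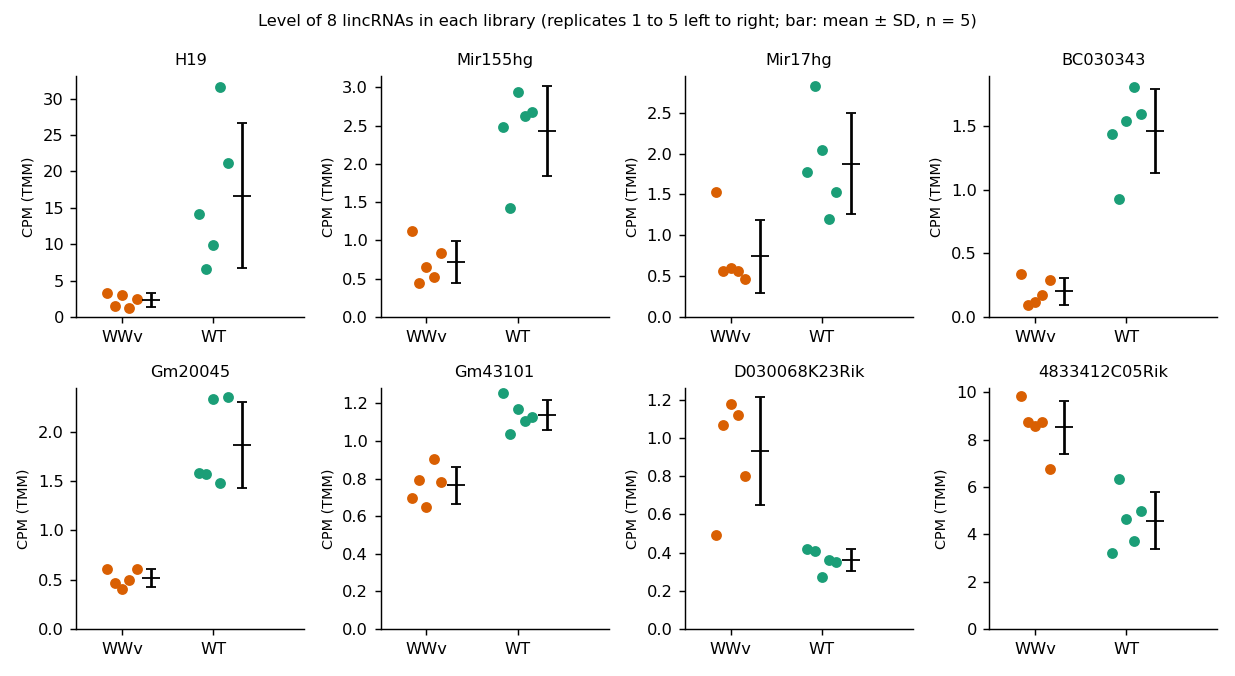
Level of 8 lincRNAs in each library (vertical axis, TMM-scaled CPM, from 0), with WWv libraries left of WT libraries and a black bar for the mean ± SD of 5. Apart from Mir17hg, where WWv 1 lies within the WT range, the groups do not overlap, and H19 spans 1.27 to 3.28 CPM in WWv and 6.58 to 31.6 CPM in WT.

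Position relative to coding genes was compared for the 195 lincRNAs whose nearest coding gene was tested, which involve 187 different coding genes. The nearest coding gene had the same sign of change as the lincRNA in 123 of 195 pairs, and across the pairs the 2 log2 fold changes correlated weakly (Pearson r = 0.28, Spearman rho = 0.37). These pairs share the same libraries and are not independent. Within 5 kb, 66 of 108 pairs had the same sign (Pearson r = 0.26), and beyond 5 kb 57 of 87 did (r = 0.29). Of 53 lower lincRNAs with such a neighbour, the neighbour was lower in 20, higher in 4 and not called in 29. Of 11 higher lincRNAs the neighbour was higher in 5 and not called in 6. Of 131 that were not called it was higher in 19, lower in 15 and not called in 97. Over all 13195 protein coding genes tested, 14.3% rose and 14.9% fell. The lincRNA with Kit as its nearest coding gene, Gm43101 (chr5:75727605-75735967, plus strand), starts 70.9 kb beyond it on the same strand. It had 0.697, 0.790, 0.650, 0.904 and 0.783 CPM in WWv and 1.25, 1.03, 1.17, 1.10 and 1.13 CPM in WT, without overlap (log2 fold change −0.57 ± 0.14, edgeR adjusted p = 0.0129). Kit had fallen by 1.04 on the same scale.

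**Figure D5:**
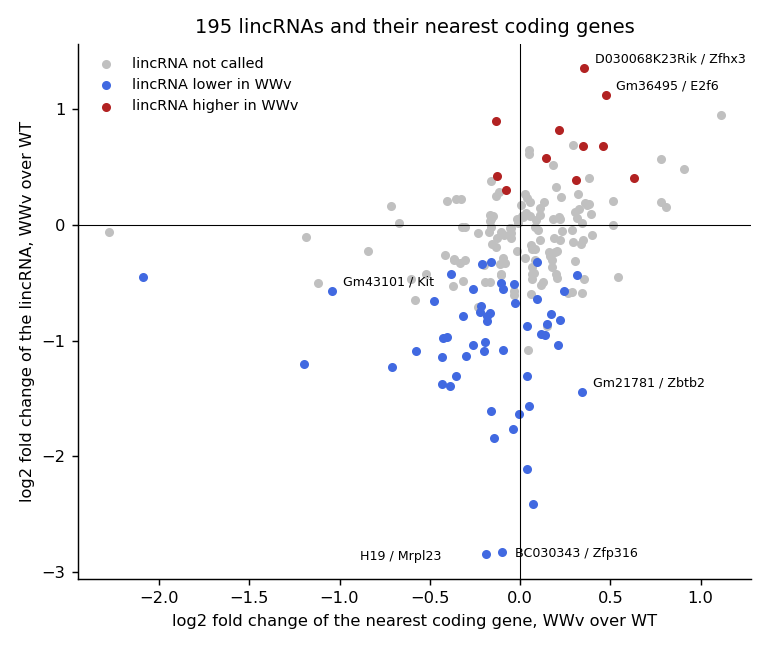
Each point is 1 of 195 lincRNAs, placed by the log2 fold change of its nearest tested coding gene (horizontal axis) and its own (vertical axis), both WWv over WT, and coloured by its call. H19 and BC030343 lie near 0 on the horizontal axis and below −2.8 on the vertical one, while Gm43101 and Kit are both below 0.

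The lincRNAs were also divided by distance, without a test of the difference. Of 122 lincRNAs within 5 kb of a coding gene 5 rose (4.1%) and 38 fell (31.1%), with a median of −0.31. Of 117 farther away 8 rose (6.84%) and 24 fell (20.5%), with a median of −0.17. Of 49 with a divergent coding start within 5 kb 1 rose (2.04%) and 15 fell (30.6%), with a median of −0.26. Of 190 without one 12 rose (6.32%) and 47 fell (24.7%), with a median of −0.29. The shares over all tested genes were 12.8% higher and 15.4% lower. Promoters were read from the RefSeq table (GRCm38.p6, 250 bases before to 50 after the start), which held 145 promoters of 122 of the lincRNAs. The TATA box letters TATAAA, searched on both strands, were in 11.0% of these and in 13.6% of all 32851 promoters, and the AP-1 letters TGANTCA in 10.3% and 7.81%. Promoters of lower lincRNAs held TATAAA in 6 of 38 and TGANTCA in 4, those of higher ones TATAAA in none of 8 and TGANTCA in 2, and those of uncalled ones TATAAA in 10 of 99 and TGANTCA in 9. The median number of CG pairs was 8 in promoters of the lincRNAs and 7 in all promoters.

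A few genes held most of the lincRNA reads. The 5 most abundant by mean CPM were Meg3, Gm42418, Gm26917, Cyrano and Norad. Per kilobase of exon, Gm42418 had 315 CPM, Meg3 48.2, Carmn 10.1 and H19 3.93, as means over 10 libraries. Gm42418 had 1827, 491, 492, 670 and 245 CPM in WWv and 453, 563, 391, 328 and 343 CPM in WT (log2 fold change 0.84 ± 0.44, edgeR adjusted p = 0.173), and without WWv 1 the log2 fold change was 0.19. Of its 1831 exon bases, 1822 overlap an annotated ribosomal RNA gene on the opposite strand, so its reads may come from either. Gm26917 had 120, 95.8, 104, 85.1 and 63.4 CPM in WWv and 87.5, 186, 131, 74.9 and 95.9 CPM in WT (−0.30 ± 0.24, adjusted p = 0.38), and without WT 2 the log2 fold change was −0.05.

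All 239 lincRNAs summed to 3834, 2048, 2080, 2267 and 2045 CPM in WWv and 2461, 2166, 2473, 2647 and 2725 CPM in WT. Apart from WWv 1, the WWv sums lay at the lower end of the WT range or below it. Without Gm42418 and Gm26917 the sums were 1887, 1461, 1485, 1512 and 1737 CPM in WWv and 1921, 1417, 1952, 2244 and 2286 CPM in WT. Leaving out Meg3 too, they were 901, 869, 865, 846 and 911 CPM in WWv and 957, 827, 963, 1067 and 1006 CPM in WT. In this last sum WT 2 was the lowest of the 10 libraries, and the other 4 WT libraries lay above all 5 of WWv (means of 878 ± 26.7 CPM in WWv and 964 ± 88.5 CPM in WT, SD, n = 5 each).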

How the data were processed

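RNA was measured in 10 libraries. The deposited values were whole-number counts per gene. Library preparation used Nugen's Universal Plus mRNA-Seq kit, per the labels' protocols. The authors used bcl2fastq 2.17, Trim Galore 0.4.3, STAR 2.5.2a and mm10, per the submitters' processing notes. How reads were counted, whether by strand and with which annotation, is not given in the sources used here. Biotypes, symbols and positions came from GENCODE M21, matched by ID without version (54409 of 54446 IDs; the other 37 held 0.0026% of counts). Promoters and miRNA sequences came from RefSeq tables of GRCm38.p6.

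Groups came from the labels. WWv was compared with WT in edgeR 4.0.16 (R 4.3.3) with TMM factors, filterByExpr at a minimum count of 10 and the quasi-likelihood test with the group as the only term, over 15181 genes. An SE is the size of the log2 fold change over the square root of F. The common biological coefficient of variation was 0.161. The membership rule used unscaled CPM over all 10 libraries, and printed levels are TMM-scaled CPM. A host is a lincRNA with an annotated miRNA gene within its bounds on the same strand. Principal components used log2 CPM with a prior count of 2.

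The rule for names took members of 4 role lists, the 10 largest rises and falls among called lincRNAs whose groups do not overlap, the 5 most abundant and the 3 on each side of the threshold, with nearest coding genes. Only 8 rises met it. Named after their values were seen were the other miRNA hosts, Gm43101, Gm45397, Gm3830, Gm6093, Igf2 and Dlk1. Names on the role lists were matched by symbol alone. Members, lists and tests were chosen with earlier results of these data known.

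Alternatives were RLE factors, library totals alone, DESeq2 1.42.0, limma-voom (limma 3.58.1), 2 other count filters, the replicate number as a block, each library left out, WT 2 and WWv 1 both left out, an adjusted p under 0.01, other CPM thresholds and members without exon overlap. Members with at least 2 exons, and the host count under each fit, were chosen after seeing the data.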

Additional observations from a re-analysis of the deposited data

Results flagged for a closer look

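Samples far from the others of their group were looked for by Dixon's ratio in 84 groups of 5, where chance flags about 1 in 20. There were 6 such cases. Gm42418 was 1827 CPM in WWv 1 and 245 to 670 CPM in the other WWv libraries. The sum of all 239 lincRNAs was 3834 CPM in WWv 1 and 2045 to 2267 CPM in the others of that group. Mir17hg was 1.53 CPM in WWv 1 and 0.458 to 0.601 CPM in the others. In WT, Trp53cor1 was 4.97 CPM in WT 4 and 3.53 to 3.83 CPM in the others, Gm26722 was 2.01 CPM in WT 2 and 2.55 to 2.72 CPM in the others, and Gm37565 was 0.992 CPM in WT 2 and 0.230 to 0.306 CPM in the others. The library WWv 1 accounts for 3 of the cases and WT 2 for 2. The sum of all 239 lincRNAs includes Gm42418, so those cases of WWv 1 are not separate. Without Gm42418 and Gm26917 the sum was 1887 CPM in WWv 1 and 1461 to 1737 CPM in the other WWv libraries.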

How the results depend on the processing

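Against 13 higher and 62 lower lincRNAs, the counts were 13 and 62 with RLE, 11 and 78 with library totals alone, 15 and 70 with DESeq2, 14 and 59 with limma-voom and 12 and 51 without the count filter. At 1 CPM in 5 libraries 150 of the 239 were tested, with 10 higher and 47 lower. At an adjusted p under 0.01 there were 6 and 28. Leaving out 1 library gave 8 to 18 higher and 46 to 81 lower, and leaving out WT 2 and WWv 1 gave 21 and 86. The threshold of 0.25 CPM gave 15 and 87 of 359 genes, and 1 CPM gave 10 and 42 of 148. Members without exon overlap gave 9 and 36 of 170, and those with 2 or more exons 12 and 50 of 200. The labels do not say that the replicate numbers pair the samples. Deviations of same-numbered libraries correlated at −0.09, −0.01, 0.04, −0.07 and 0.31, and those of differently numbered ones at −0.54 to 0.47. These correlations cannot settle whether samples were paired. With the replicate block 12 were higher and 51 lower, with 59 of the 75 calls kept. The number of lower miRNA hosts was 8, with a range of 5 to 9 when 1 library was left out. Over all fits, 1145 of 1328 values of called lincRNAs kept their call, 183 lost it and 0 reversed in direction (edgeR, limma-voom and DESeq2 alike). Only some of the 164 uncalled lincRNAs were followed through these fits, and among those the direction reversed for 5. Epb41l4aos was −0.0826 with library totals, −0.0144 with limma-voom, −0.0202 at 1 CPM in 5 libraries, −0.0112 with the block, −0.0638 without WT 2 and WWv 1 and −0.13 to 0.0768 when 1 library was left out. In the last setting 2900097C17Rik ranged from −0.0513 to 0.0101, A230057D06Rik from −0.18 to 0.0761, Wincr1 from −0.70 to 0.11 and 4833445I07Rik from −0.51 to 0.0209. The cause of these changes was not tested, apart from the smaller number of genes or samples in the filtered and left-out fits. Low counts limit the lincRNAs under 1 CPM.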
